A study of Mus musculus with 8 samples.

Results

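A set of 36 genes of activated microglia and macrophages was followed in the adult mouse visual cortex after block of the microRNA miR-29a. The genes were chosen by name, with earlier results of these data known, as genes of disease-associated microglia, of phagocytosis and of the lysosome. All 36 have a row among the 24883 gene rows of the deposited table. The 8 libraries came from visual cortex of C57BL/6J mice. Each cortex had been injected on postnatal day 122 with a locked nucleic acid oligonucleotide, a short chemically modified strand that binds a microRNA and blocks it, and the tissue was collected 7 days afterwards, on postnatal day 129. The 4 control libraries came from cortex given an oligonucleotide of scrambled sequence. The 4 treated libraries, called anti-miR-29a here, came from cortex given one complementary to miR-29a. Both groups were injected, and no library from uninjected cortex was analysed here. The labels do not say that the libraries of a group came from separate mice, and the p-values therefore speak only of the spread among these libraries, part of which may be technical.

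Microglia are the resident macrophages of the brain. When they meet damaged cells, myelin debris or protein deposits, the surface receptor TREM2 signals through its adaptor TYROBP, and the cells take on a state with more lipid handling, phagocytosis and lysosomal digestion. Cathepsins are the proteases that do this digestion, and tetraspanins and LAMP proteins sit in the lysosomal membrane. Macrophages at the brain's borders, in the meninges and around vessels, share many of these genes and add their own, such as Mrc1, Cd163, Pf4 and Ms4a7. Several of the genes are also active in other cells of the cortex: astrocytes make much of its Apoe, and oligodendrocytes express Cd9 and Cd63. In bulk tissue, fewer or more cells of a type and less or more RNA per cell cannot be told apart.

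The microRNA that the oligonucleotide binds recognises its targets mainly through its seed, bases 2 to 8. The mature sequences of the miR-29 family (RefSeq, GRCm38.p6) are shown with the seed in capitals because all 3 members carry the same one, so a seed match does not separate them:
mmu-miR-29a-3p: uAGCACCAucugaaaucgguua
mmu-miR-29b-3p: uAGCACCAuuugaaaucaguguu
mmu-miR-29c-3p: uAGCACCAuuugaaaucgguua

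The complement of this seed, TGGTGCT, was looked for in the longest annotated 3' UTR of each gene. It was found in 3 of the 36 genes (8.33%), Cst7, Lpl and Ctsl, against 2074 of 13152 searched rows (15.8%). The 3' UTRs of the 36 genes are short, with a median of 449.5 nt and a range of 82 to 4761 nt, against a median of 1228 nt over the searched rows. Cst7 encodes cystatin F, an inhibitor of cathepsins, and Lpl lipoprotein lipase. Both have a match followed by an A, the longer form of site, which 3.36% of searched rows have. Ctsl, the gene of cathepsin L, has 2 matches without that A, at positions 3200 and 4708 of a 3' UTR of 4761 nt. Whether cortex uses this longest 3' UTR was not tested. The matches stand in capitals in their surroundings, read 5' to 3' on the strand of the gene:
Cst7, chr2:150578718-150578724, plus strand: aatgaattctcTGGTGCTacacacctaga
Lpl, chr8:68906770-68906776, plus strand: gtatagatttgTGGTGCTaactttgtgtc
Ctsl, chr13:64360892-64360898, minus strand: gtaggcagacaTGGTGCTggagaaaaagc
Ctsl, chr13:64359384-64359390, minus strand: ataatcagatcTGGTGCTcttttctggcc

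The values are FPKM, fragment numbers scaled by transcript length and for the size of the library, so levels can be compared between genes. Which library scaling was used is not given in the sources used here. Of the 36 genes, 30 averaged 0.5 FPKM or more across all 8 libraries and were tested, and 6 were low. Expression was compared on the scale of log2(FPKM + 0.1) with limma over all 13912 rows above the same minimum, with Benjamini-Hochberg adjustment over all of them, and a log2 difference is anti-miR-29a minus scrambled throughout. On this scale the change of low genes depends on the added 0.1, and can be smaller or larger than the ratio of the FPKM means. On the first principal component (19.9% of the variance) the groups did not overlap, with controls between -33.9 and 0.788 and treated libraries between 8.61 and 15.8. Libraries also differed in ways that the groups do not account for. Scrambled replicate 2, at -33.9, stood apart from the other controls, which lay between -10.6 and 0.788. Scrambled replicate 3 and anti-miR-29a replicate 3 stood apart on the next components. As a check of the tissue, Snap25, a synaptic gene of neurons, averaged 1631 ± 62.9 FPKM in the controls and 1624 ± 112 after anti-miR-29a (SD, n = 4 per group, as for every ± below not marked SE).

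None of the 30 tested genes passed the threshold of 0.05 after adjustment over all rows (limma; 0 of 30, where 0.0144% of all tested rows passed). At an unadjusted p under 0.05 limma counted 7 of them higher in the anti-miR-29a libraries (23.3%, against 7.54% of all tested rows) and 0 lower (against 3.18%). Over all tested rows these are 1049 higher and 443 lower, a split that became 713 and 797 under quantile normalization 748 and 731 under median centring and 574 and 533 with the trend on transcript length and GC content removed. The members stood at 5, 6 and 4 higher in these settings. The 7 were Ms4a7, Gpnmb, Apoe, Ctsz, Cd68, Fcer1g and Ctsl. A positive log2 difference was found in 24 of 30 genes (80.0%, against 56.6% of all tested rows), and the median was 0.25 against 0.026 over all tested rows. Because the genes were chosen with earlier results of these data known, the comparisons with all tested rows only describe the set and test nothing. Ms4a7 and Lyz1 met the filter through the anti-miR-29a libraries. Among the 28 tested genes whose scrambled mean alone reached 0.5 FPKM, 22 differences were positive (78.6%, against 55.8% of all such rows), 6 genes were higher at an unadjusted p under 0.05 (21.4%, against 7.42%) and the median was 0.21. Among the 19 genes averaging 5 FPKM or more, 16 differences were positive (84.2%, against 58.9% of all such rows), 5 genes were higher at an unadjusted p under 0.05 (26.3%, against 9.87%) and 0 lower (against 3.64%). These counts rest on few libraries: 12 genes were higher at an unadjusted p under 0.05 without scrambled replicate 1, but 4 without scrambled replicate 2, 3 without scrambled replicate 4, 3 without anti-miR-29a replicate 2 and 4 without anti-miR-29a replicate 4. The count was also 4 without the filter. The median of 0.25 was 0.17 under quantile normalization and 0.15 with the length and GC trend removed.

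**Figure D1:**
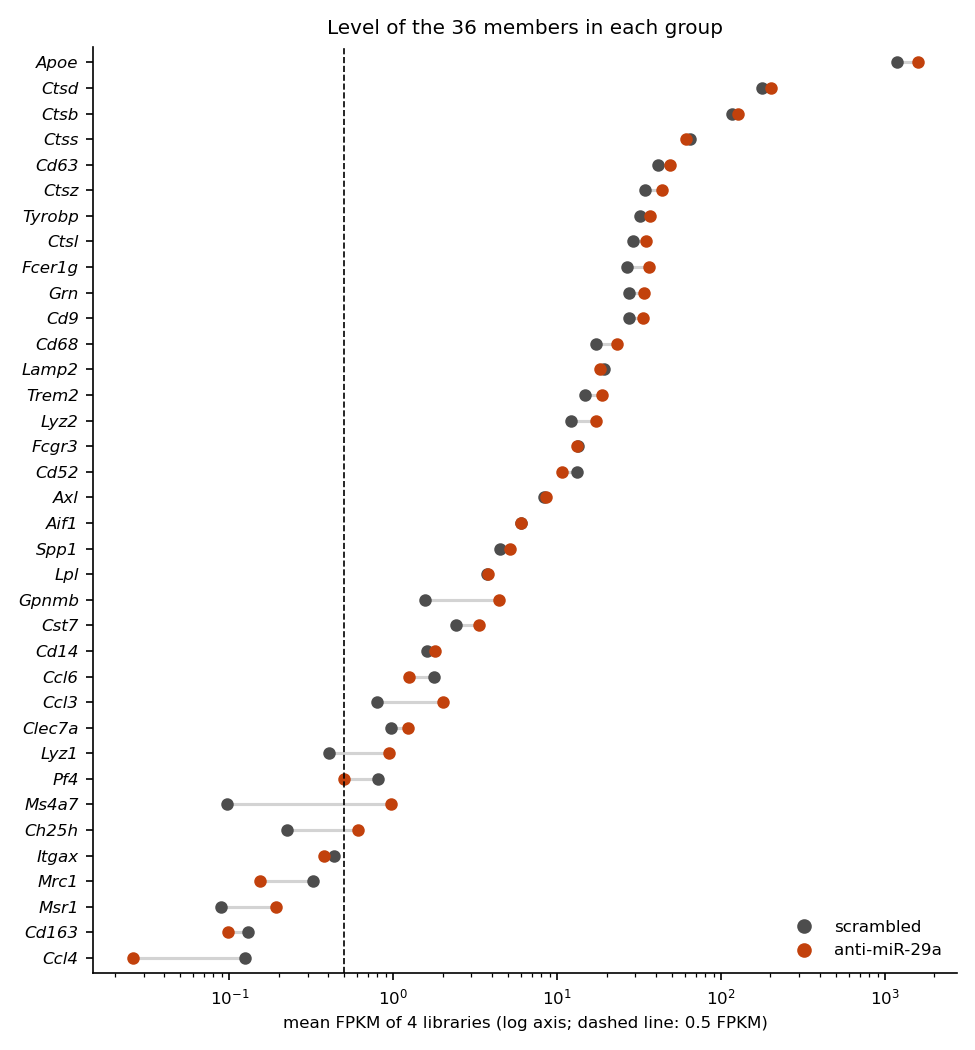
Mean FPKM of the 36 genes in the 4 scrambled (dark grey) and 4 anti-miR-29a (red-orange) libraries on a log axis, in order of their mean over all libraries. Apoe stands far above the rest at 1183 and 1583 FPKM, and the 6 lowest genes, from Ch25h down, average less than the dashed line at 0.5 FPKM over all 8 libraries.

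The plot of mean FPKM runs from Apoe at the top to Ccl4 at the bottom. Apoe, which encodes the lipid carrier apolipoprotein E, had the highest level of the 36, followed by the cathepsin genes Ctsd, Ctsb and Ctss, the tetraspanin gene Cd63 and the cathepsin gene Ctsz. The filter fell between Ms4a7 at 0.534 and Pf4 at 0.653 FPKM just above it and Ch25h at 0.416 and Itgax at 0.405 FPKM just below it.

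**Figure D2:**
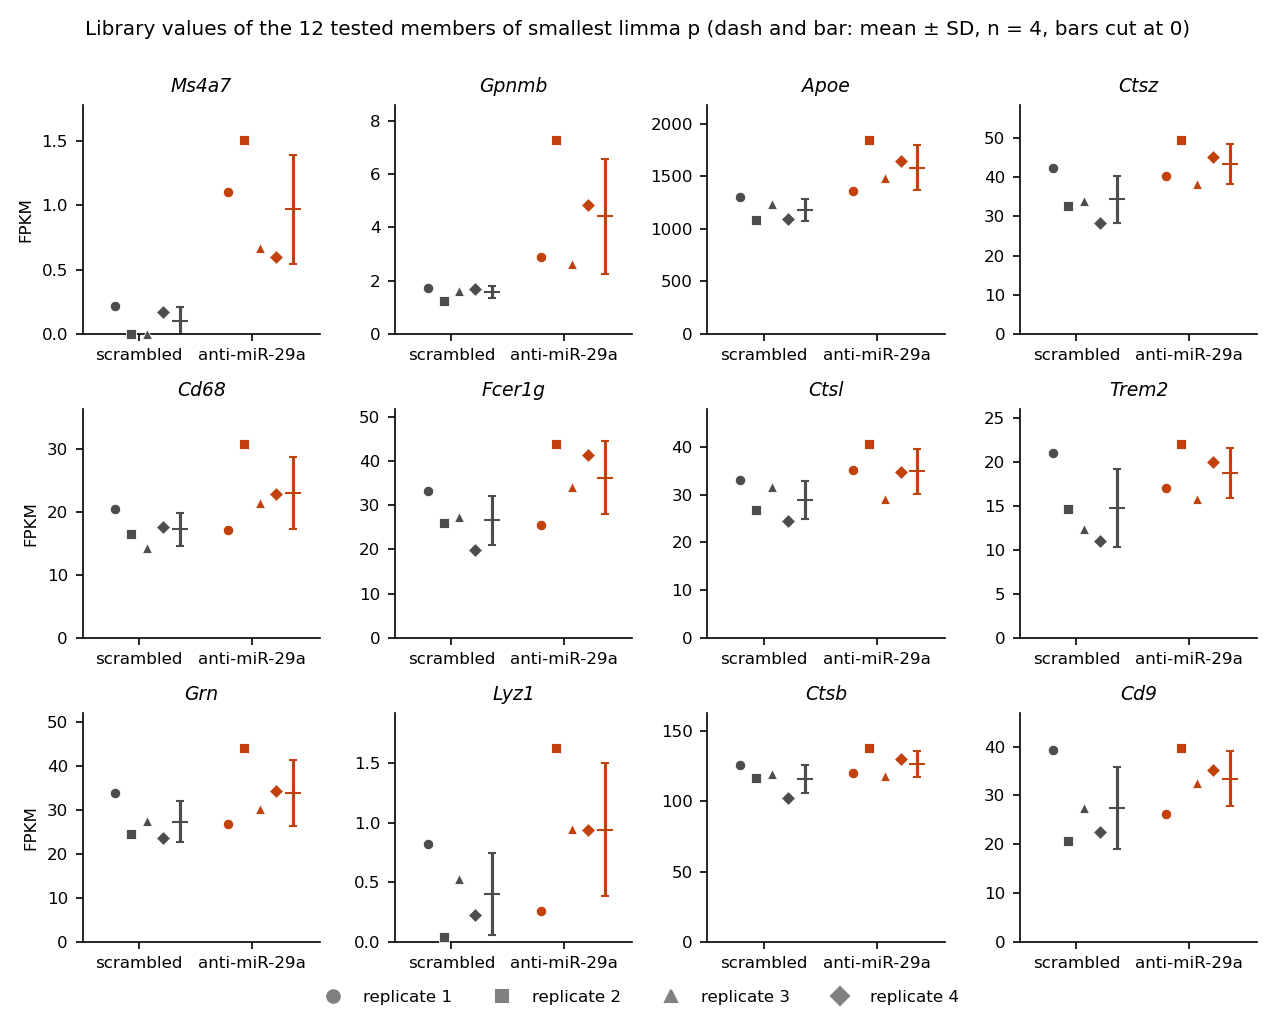
FPKM of the 12 tested genes of smallest limma p in each library (marker shape: replicate number), with the mean and SD of each group beside the points. Ms4a7, Gpnmb and Apoe show no overlap between groups, whereas in the other 9 at least 1 anti-miR-29a library lies below a scrambled one.

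The receptor pair at the head of the pathway was measured first. Trem2 read 21.0, 14.6, 12.4 and 11.03 FPKM in scrambled replicates 1 to 4 and 17.0, 22.0, 15.7 and 19.95 in anti-miR-29a replicates 1 to 4. Scrambled replicate 1 was higher than 3 of the anti-miR-29a libraries, so the groups overlapped, and the log2 difference was 0.37 with a 95% interval of -0.043 to 0.78 (limma, adjusted p = 0.502). Tyrobp, the adaptor that passes the TREM2 signal into the cell, read 32.1 ± 6.91 and 36.6 ± 9.10 FPKM, a difference of 0.18 with an interval of -0.24 to 0.60 (limma, adjusted p = 0.773).

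Gpnmb and Apoe, genes of the disease-associated state, separated the groups completely. Every treated library exceeded every control in 3 of the 30 genes (10.0%, against 4.02% of all tested rows), Gpnmb, Apoe and Ms4a7, and in 0 the reverse held (against 2.29%). Among the 28 genes whose scrambled mean alone reached 0.5 FPKM, which leaves out Ms4a7, it was 2 (7.14%, against 3.92% of all such rows). Gpnmb encodes a transmembrane glycoprotein of lipid-laden macrophages and lies at chr6:49036546-49070929 on the plus strand (GRCm38, the assembly also named mm10). It read 1.73, 1.25, 1.62 and 1.67 FPKM in the scrambled and 2.89, 7.30, 2.63 and 4.85 in the anti-miR-29a libraries. The scrambled values were close together while the anti-miR-29a values were spread, with replicate 2 the highest. The log2 difference was 1.33, 95% interval 0.67 to 1.98 (limma, adjusted p = 0.201). Apoe, at chr7:19696109-19699188 on the minus strand, read 1305, 1089, 1239 and 1098 FPKM in the scrambled and 1357, 1849, 1484 and 1643 in the anti-miR-29a libraries. Its lowest treated library stood just above its highest control, and the log2 difference was 0.42, interval 0.21 to 0.62 (limma, adjusted p = 0.211). Under quantile normalization, which gives every library the same set of values, the difference of Apoe was -0.057. The cause of this change was not tested.

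The other genes of this state showed no such separation. Cst7, which has a seed site shown above, read 2.43 ± 1.03 and 3.36 ± 1.25 FPKM, with 2 of 4 anti-miR-29a libraries above every scrambled one and a log2 difference of 0.47 with an interval of -0.26 to 1.197. Spp1, which encodes the secreted phosphoprotein osteopontin, read 4.48 ± 0.612 and 5.17 ± 1.37 FPKM. Lpl, with a site of the same form, read 3.73 ± 0.707 and 3.79 ± 0.376 FPKM, a log2 difference of 0.034 with an interval of -0.30 to 0.37. Axl, a receptor kinase gene for the uptake of dying cells, read 8.27 ± 0.9797 and 8.60 ± 1.59 FPKM. Clec7a, the beta-glucan receptor gene, read 0.967 ± 0.382 and 1.23 ± 0.912 FPKM, and anti-miR-29a replicate 3 at 0.0742 stood below the other 7 libraries. The log2 difference of Clec7a was -0.13 with an interval of -1.71 to 1.45, opposite in sign to the difference of the FPKM means. Itgax, the integrin gene that marks a part of activated microglia, was low at 0.433 ± 0.1402 and 0.377 ± 0.172 FPKM. The adjusted p of Cst7, Spp1, Lpl, Axl and Clec7a lay between 0.643 and 0.963 (limma).

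Genes of the lysosomal membrane and the tetraspanins read higher in 3 of 4 cases (where 56.6% of all tested rows had a positive difference). Cd68, a lysosomal glycoprotein gene used as a mark of phagocytic cells, read 20.4, 16.6, 14.3 and 17.7 FPKM in the scrambled and 17.1, 30.8, 21.4 and 22.9 in the anti-miR-29a libraries. Anti-miR-29a replicate 1 lay among the controls and the other 3 above all of them, for a log2 difference of 0.40 ± 0.17 (SE; limma, adjusted p = 0.432). Cd9 read 39.4, 20.7, 27.4 and 22.4 FPKM in the scrambled and 26.2, 39.7, 32.5 and 35.2 in the anti-miR-29a libraries. Scrambled replicate 1 thus was nearly as high as the highest treated library. Cd63 read 46.6, 25.6, 52.1 and 40.0 FPKM in the scrambled and 42.6, 55.8, 40.5 and 55.7 in the anti-miR-29a libraries, and the groups overlapped widely. Lamp2, whose protein lines the lysosome and takes part in autophagy, read 19.4 ± 2.36 and 18.1 ± 2.18 FPKM. Its log2 difference was -0.095 with an interval of -0.34 to 0.15 (limma, adjusted p = 0.790).

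The lysosomal proteases include Ctsd, Ctsb and Ctss, the most abundant genes of the set after Apoe. Ctsz, which encodes cathepsin Z, read 42.5, 32.8, 33.8 and 28.3 FPKM in the scrambled and 40.5, 49.6, 38.2 and 45.3 in the anti-miR-29a libraries. The 3 lower controls lay below every treated library while scrambled replicate 1 lay among them, and the log2 difference was 0.34 ± 0.12 (SE; limma, adjusted p = 0.365). Ctsl read 33.0, 26.7, 31.6 and 24.4 FPKM in the scrambled and 35.2, 40.7, 29.2 and 34.7 in the anti-miR-29a libraries, with anti-miR-29a replicate 3 below 2 of the controls. The difference was 0.27 ± 0.12 (SE; limma, adjusted p = 0.448). Grn encodes progranulin, a lysosomal protein that microglia secrete, and read 33.9, 24.4, 27.4 and 23.6 FPKM in the scrambled and 26.7, 44.1, 30.2 and 34.2 in the anti-miR-29a libraries. Its groups overlapped through scrambled replicate 1 and anti-miR-29a replicate 1 (log2 difference 0.30, limma adjusted p = 0.525).

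The aspartic protease gene Ctsd and the cysteine protease genes Ctsb and Ctss differed less. Ctsb read 126, 116, 119 and 103 FPKM in the scrambled and 120, 138, 118 and 130 in the anti-miR-29a libraries. Ctsd read 196, 177, 175 and 165 FPKM in the scrambled and 173, 261, 173 and 200 in the anti-miR-29a libraries, and only the latter's replicates 2 and 4 exceeded every control. Ctss, the cathepsin most tied to microglia, read 92.3, 53.8, 58.7 and 54.5 FPKM in the scrambled and 58.7, 69.5, 56.4 and 61.3 in the anti-miR-29a libraries. Its 1 high value was scrambled replicate 1, and no treated library exceeded it. The log2 differences of the 3 genes were 0.13, 0.16 and -0.043, and without scrambled replicate 1 that of Ctss was 0.14. Some of the reads of this group could be assigned to other genes: of all stretches of 100 bases of the transcript, 35.0% for Ctsd, 25.4% for Ctsl, 14.5% for Ctsb and 20.2% for Cd63 also occur in a transcript of another annotated gene on either strand (Gm49369, Gm47123, Fdft1 and Cd63-ps). How the authors' counting divided such reads is not given in the sources used here.

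Lyz1 and Lyz2, neighbouring genes on chromosome 10 that encode the antibacterial enzyme lysozyme, were at very different levels. Lyz2 read 17.1, 7.63, 11.6 and 12.1 FPKM in the scrambled and 14.5, 25.0, 9.59 and 20.1 in the anti-miR-29a libraries. Lyz1 read 0.821, 0.0424, 0.526 and 0.224 FPKM in the scrambled and 0.262, 1.63, 0.944 and 0.938 in the anti-miR-29a libraries. For both, the lowest value was in scrambled replicate 2 and the highest in anti-miR-29a replicate 2. They are paralogs, and 2.06% of the 100-base stretches of Lyz1 are also found in Lyz2, so that reads from those stretches cannot be told apart. The log2 differences were 0.48 for Lyz2 and 1.17 for Lyz1, with intervals of -0.19 to 1.15 and -0.29 to 2.63 (limma, adjusted p = 0.604 and 0.551).

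Among receptors, Fcer1g was the member with the smallest p. It encodes the shared signalling chain of activating Fc receptors and read 33.3, 25.9, 27.2 and 19.9 FPKM in the scrambled and 25.4, 43.8, 34.2 and 41.4 in the anti-miR-29a libraries. Anti-miR-29a replicate 1 fell within the controls and the other 3 lay above all of them (log2 difference 0.44, standard error 0.19; limma, adjusted p = 0.440). Fcgr3, the gene of the IgG receptor chain that pairs with it, read 13.4 ± 3.86 and 13.3 ± 1.88 FPKM, a log2 difference of 0.019 with an interval of -0.41 to 0.44. Cd14, the co-receptor for bacterial lipopolysaccharide, read 1.61 ± 0.678 and 1.81 ± 0.343 FPKM, and the scavenger receptor gene Msr1 was low at 0.0888 ± 0.0397 and 0.194 ± 0.0849 FPKM. Genes shared by all microglia and blood monocytes showed no common direction: Aif1, which encodes the microglial stain IBA1, read 6.04 ± 1.74 and 6.00 ± 1.46 FPKM, and Cd52, a small surface glycoprotein gene, 13.2 ± 5.95 and 10.7 ± 3.50 FPKM. Adjusted p was 0.998 for Aif1 and 0.857 for Cd52 (limma).

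Chemokine genes were near the lower limit. Ccl3, which encodes an attractant of monocytes, read 1.67, 0.228, 0.549 and 0.720 FPKM in the scrambled and 0.235, 1.78, 2.82 and 3.19 in the anti-miR-29a libraries. In 3 treated libraries it exceeded every control, while anti-miR-29a replicate 1 was at the bottom of the control range (log2 difference 1.07, interval -0.56 to 2.70; limma, adjusted p = 0.636). Ccl6, another chemokine gene of myeloid cells, read 1.78 ± 0.770 and 1.24 ± 0.524 FPKM (log2 difference -0.46, interval -1.29 to 0.37). Ccl4, the close relative of Ccl3, was low, and was listed at 0 in scrambled replicates 2 and 4 and in anti-miR-29a replicates 1, 2 and 4. Ch25h, the enzyme gene for 25-hydroxycholesterol, was also low at 0.226 ± 0.173 and 0.607 ± 0.495 FPKM, with the upper mean carried by 1.35 FPKM in anti-miR-29a replicate 2.

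Genes of border-associated macrophages were near or under the filter. Ms4a7, a four-pass membrane protein gene at chr19:11321039-11336146 on the minus strand, read 0.219, 0, 0 and 0.168 FPKM in the scrambled and 1.11, 1.51, 0.666 and 0.601 in the anti-miR-29a libraries. It had the smallest p of the set (limma, adjusted p = 0.201), and every treated library lay above every control. Its size depends on the pseudocount, with log2 differences of 2.56 (interval 1.31 to 3.82) at 0.1, 0.83 at 1 and 4.35 at 0.01. Pf4, a chemokine gene of platelets and border macrophages, read 0.837, 0, 1.06 and 1.32 FPKM in scrambled replicates 1 to 4 and 2.00 in anti-miR-29a replicate 1, and was listed at 0 in anti-miR-29a replicates 2, 3 and 4 (log2 difference -1.55, interval -4.17 to 1.06; limma, adjusted p = 0.674). Mrc1, the mannose receptor gene, and Cd163, the haemoglobin scavenger receptor gene, were low, at 0.326 ± 0.154 and 0.155 ± 0.142 FPKM and at 0.130 ± 0.0929 and 0.0981 ± 0.0584 FPKM. In both, the mean of the anti-miR-29a libraries was the smaller one. Of 16 further genes of these macrophages only 6 reached the filter, 3 of them higher and 3 lower (where 56.6% of all tested rows were higher). Their median was -0.024, and 0.29 without anti-miR-29a replicate 1. The summed level of all 16 ranged from 35.8 to 41.9 FPKM in the controls and from 38.0 to 49.1 in treated libraries. Most of that sum was Gas6, the ligand of AXL, which other cells also make, at 28.8 ± 1.85 and 33.6 ± 3.91 FPKM.

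**Figure D3:**
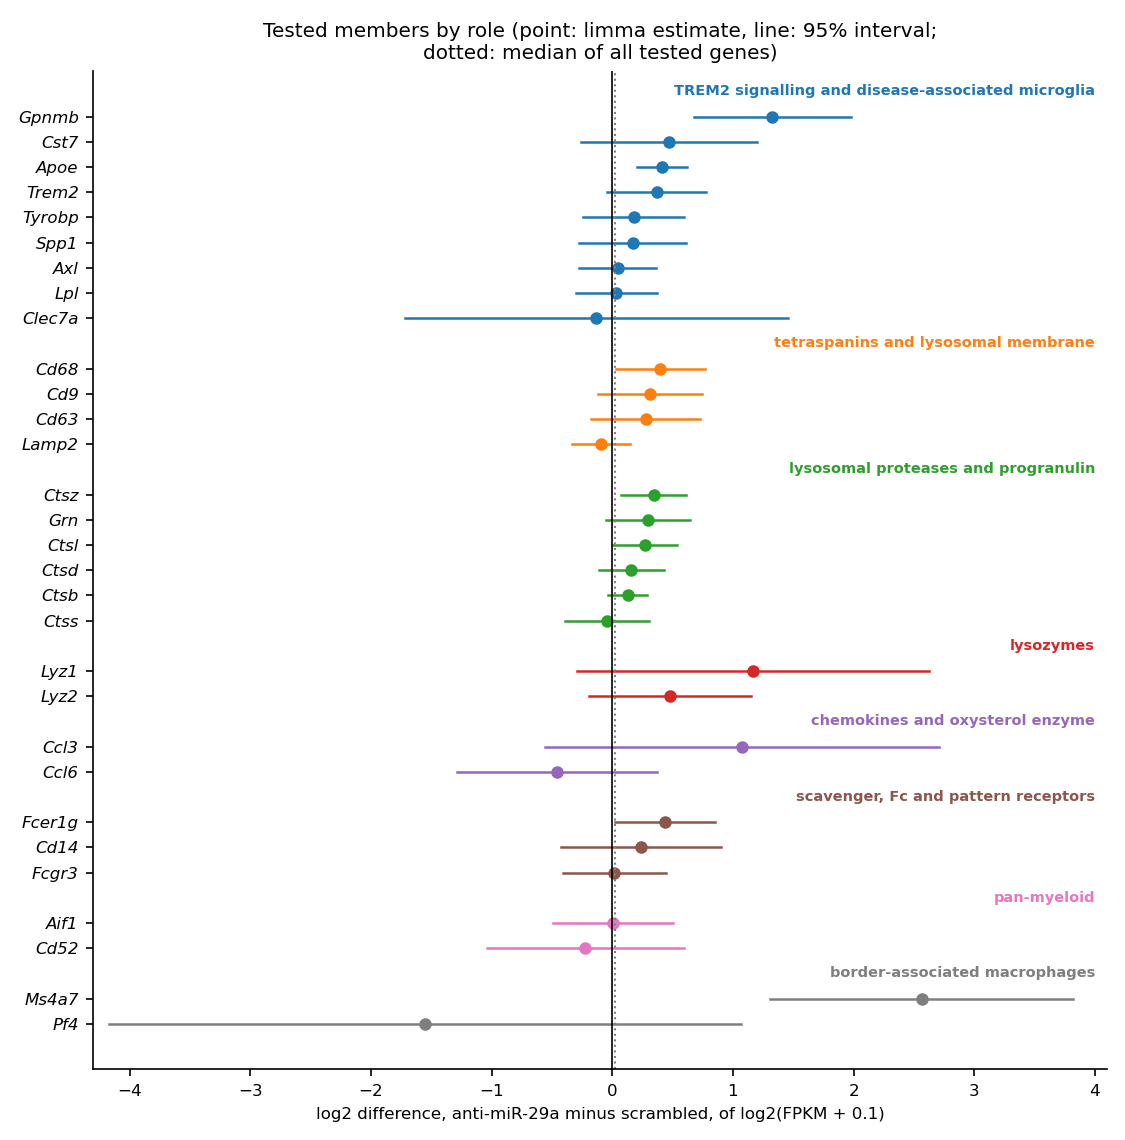
Log2 differences of the 30 tested genes, anti-miR-29a minus scrambled, grouped by role, with limma 95% intervals; the dotted line is the median of all tested rows at 0.026. The intervals of 7 genes lie wholly above 0 and none wholly below, and the intervals of Pf4, Clec7a, Ccl3 and Lyz1 are the widest.

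The genes tended to be high in the same libraries inside each group. Anti-miR-29a replicate 2 held the highest value of the 8 libraries for 19 of 30 tested genes (63.3%, against 19.6% of all tested rows). Anti-miR-29a replicate 3 held it for 0 (against 12.8%) and replicates 1 and 4 for 1 and 3 (against 11.8% and 12.4%). Scrambled replicates 1 to 4 held it for 3, 2, 1 and 1 (against 8.66%, 13.4%, 11.2% and 10.3%), scrambled replicate 1 for Cd52, Ctss and Fcgr3. Among the controls, scrambled replicate 1 was the highest for 22 of 30 (73.3%, against 22.8%), and replicates 2, 3 and 4 for 3, 3 and 2 (against 26.2%, 26.5% and 24.4%). Taken as the median over the 30 genes relative to the scrambled mean, scrambled replicates 1 to 4 stood at 0.32, -0.17, 0.019 and -0.18 log2 units and anti-miR-29a replicates 1 to 4 at -0.011, 0.55, 0.064 and 0.37. Scrambled replicate 1 therefore stood above anti-miR-29a replicates 1 and 3, and the groups overlapped. With 1 library left out at a time, the median log2 difference of the genes ranged from 0.16 without scrambled replicate 2 to 0.35 without anti-miR-29a replicate 3.

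**Figure D4:**
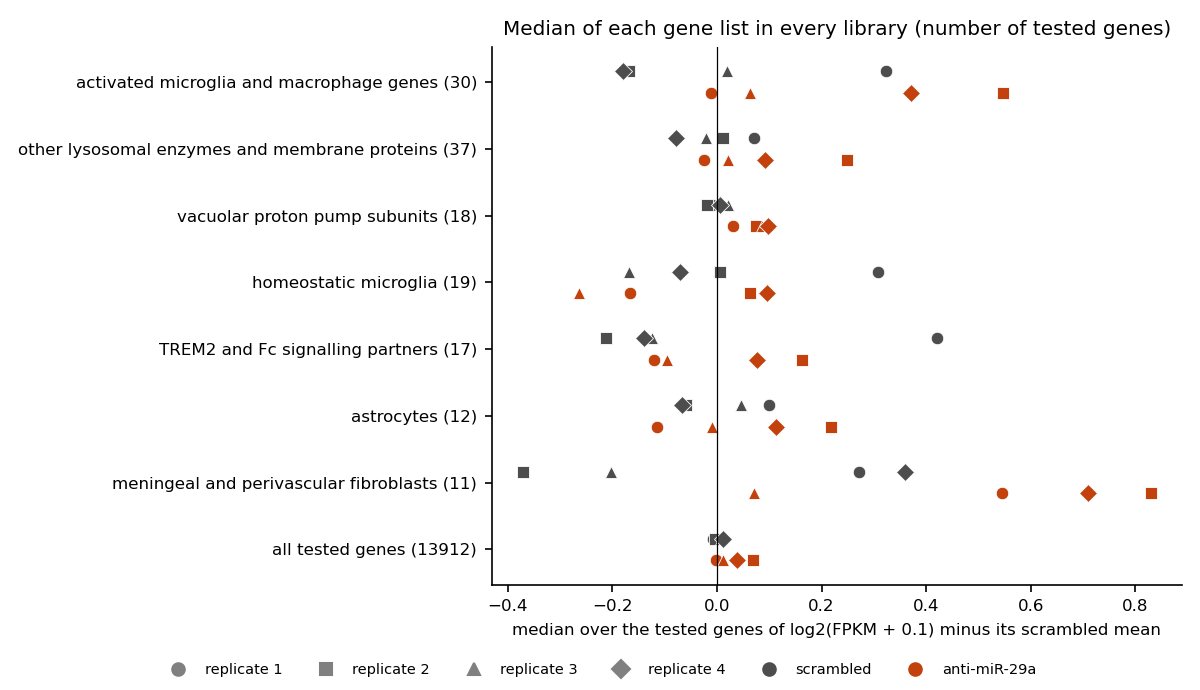
Median of each gene list in every library, relative to the scrambled mean of each gene, with marker shape for the replicate number and the number of tested genes in brackets. For the activated genes, scrambled replicate 1 at 0.32 and anti-miR-29a replicates 2 and 4 at 0.55 and 0.37 lie to the right, while for homeostatic microglia genes scrambled replicate 1 at 0.31 is the rightmost of all 8.

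Homeostatic genes are those of resting microglia, and are known to fall as the cells take on the activated state. Of 20 homeostatic genes 19 were tested, with a median of -0.029. A positive difference was found in 7 and a negative one in 12 (where 56.6% of all tested rows had a positive one). At an unadjusted p under 0.05, 0 were higher and 0 lower (where 7.54% and 3.18% of all tested rows were). The median was 0.077 without scrambled replicate 1 and -0.11 without anti-miR-29a replicate 2. The defining markers, named here after their values were seen, were all present: Tmem119 at 8.35 ± 2.34 and 8.53 ± 2.46 FPKM, Cx3cr1 at 15.0 ± 3.35 and 14.2 ± 1.98, Csf1r at 24.1 ± 6.37 and 22.9 ± 4.86, and P2ry12 at 8.65 ± 1.52 and 7.26 ± 0.912. The smallest adjusted p among these was 0.554, for P2ry12 (limma). Sall1, the transcription factor gene of microglial identity, had the smallest p of this list, with a log2 difference of -0.27 (limma, adjusted p = 0.501). The next by p, P2ry6 and Fcrls, went the other way, with log2 differences of 0.45 and 0.36 (limma, adjusted p = 0.525 and 0.530). Bin1 and Rhob, the list's most abundant genes, are not limited to microglia. The difference between this list and the activated genes was not tested. The list of TREM2 and Fc receptor partners, which also holds Csf1, Il34 and Tgfb1, ligand genes of other receptors, was also mixed in direction. Of its 17 tested genes 7 were higher (where 56.6% of all tested rows were), with a median of -0.036. At an unadjusted p under 0.05, 2 were higher and 0 lower (where 7.54% and 3.18% of all tested rows were). The 2, Il34 and Tgfb1, are both among those ligand genes. Leaving out scrambled replicate 1 gave a median of 0.089, and leaving out scrambled replicate 2 gave -0.16.

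Of 37 further genes of the lysosome, all tested, 27 had a positive difference (where 56.6% of all tested rows did), 4 were higher and 0 lower at an unadjusted p under 0.05 (where 7.54% and 3.18% of all tested rows were), and the median was 0.12. Removal of the length and GC trend gave 0.043. The median was 0.066 under quantile normalization, 0.037 over genes averaging 5 FPKM or more, 0.058 without scrambled replicate 2, 0.052 without anti-miR-29a replicate 2 and 0.072 without anti-miR-29a replicate 4. Hexa, a subunit gene of beta-hexosaminidase, read 17.8 ± 1.35 and 22.7 ± 3.39 FPKM. Ctsa, the gene of the protective protein cathepsin A, read 31.4 ± 2.14 and 37.6 ± 4.31 FPKM, and Cst3, the secreted cathepsin inhibitor cystatin C, 750.1 ± 48.7 and 866.3 ± 86.6 FPKM. Psap, which encodes the saposin precursor, was nearly level at 511 ± 14.6 and 521 ± 26.9 FPKM. For the vacuolar proton pump that acidifies lysosomes, 16 of 18 tested subunit genes were higher (where 56.6% of all tested rows were). At an unadjusted p under 0.05, 3 were higher and 0 lower (where 7.54% and 3.18% of all tested rows were). The small median of 0.068 was -0.0042 once the trend on transcript length and GC content was removed. No gene of either list passed after adjustment (limma, 0 of 37 and 0 of 18).

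Letters for 2 transcription factors were looked for in the RefSeq promoter windows (GRCm38.p6, 250 bases before to 50 after a gene start), which cover 29 of the 36 genes in 35 windows of 300 bases. TCACGTG, the core of the motif bound by the lysosomal regulator TFEB, was searched on both strands and occurred in 1 member window (2.86%), that of Ctsd, which holds it at 2 places and at the one shown also on the other strand, where the letters overlap, against 3.77% of 32851 windows. GAGGAAG, a core of sites for the myeloid factor PU.1, was also searched on both strands, as CTTCCTC on the other, and occurred in 9 member windows of 8 genes (25.7%), against 13.6% of all windows. A stretch of the Ctsd and of the Trem2 promoter is shown as the example of each, with the match in capitals, read on the strand of the gene, where the Trem2 match has the letters of the other strand:
Ctsd, chr7:142387900-142387946, minus strand: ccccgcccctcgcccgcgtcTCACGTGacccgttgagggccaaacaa
Trem2, chr17:48346340-48346386, plus strand: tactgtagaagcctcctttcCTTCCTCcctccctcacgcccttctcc

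Markers of other cell types were read beside these genes. Of 12 astrocyte markers 7 had a positive difference (where 56.6% of all tested rows did), with a median of 0.056. Their summed level ranged from 922 to 1104 FPKM in the controls and from 921 to 1309 in treated libraries. Gja1, the gap junction gene of astrocytes and the one of smallest p in the list, read 43.0 ± 5.01 and 51.4 ± 5.46 FPKM. The most abundant genes of the list, Slc1a2 and Aldoc, were nearly level, with log2 differences of -0.0016 and -0.023. Gfap, the filament gene of reactive astrocytes, read 169 ± 70.1 and 275 ± 98.8 FPKM and, as for most activated microglial genes, was highest among the controls in scrambled replicate 1 and highest of all in anti-miR-29a replicate 2. Markers of meningeal and perivascular fibroblasts had a positive difference in 10 of 11 tested genes (where 56.6% of all tested rows did), with a median of 0.49. Their summed level was 332 to 522 FPKM in the controls and 484 to 745 in treated libraries, most of it Ptgds, a prostaglandin D synthase gene, at 399 ± 82.1 and 607 ± 110 FPKM. The part of astrocytes and fibroblasts in the differences of Apoe, Ms4a7 and the other genes was not tested. Markers of monocytes and neutrophils were low: 3 of 14 reached the filter, Mpo and Retnlg were listed at 0 in all 8 libraries, and the sum of the list ranged from 6.76 to 12.5 FPKM in the controls and from 7.67 to 12.02 in treated libraries. Markers of T and B cells summed to 1.44 to 2.95 and 1.75 to 2.31 FPKM. All 10 oligodendrocyte markers had a negative difference (where 56.6% of all tested rows had a positive one), with a median of -0.15. Their summed level was 844 to 1724 FPKM in the controls and 939 to 1253 in treated libraries. Without scrambled replicate 1 that median was 0.034, and without scrambled replicate 4 it was -0.31.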

How the data were processed

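Per the submitters' processing notes, the authors used CASAVA 1.8.2, Bowtie and Cuffnorm with the build mm10 and deposited 1 FPKM value per gene row and library. The sources used here do not give the order of steps, the annotation or the Cuffnorm scaling. Per the labels, the library kit is one that does not mark strand. No read totals were used. Spacing of low FPKM values gave relative depths of 0.983 to 1.17, with 26.8% to 35.9% of ratios within tolerance at the best fit, too irregular to recover whole reads. Depth and counting error are therefore unknown.

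Rows with a mean of at least 0.5 FPKM were fitted as log2(FPKM + 0.1) in limma 3.58.1 (R 4.3.3), with a term for group, a mean-variance trend and two-sided tests, and with Benjamini-Hochberg adjustment over 13912 rows. Repeated symbols (537 rows) stayed separate rows. Transcript length, GC content, positions and 3' UTRs came from GENCODE M21, the assembly of mm10, which matched 99.1% of tested rows. The trend on length and GC content was fitted with mgcv 1.9.3. On simulated data with 200 changed genes among 13912 rows, 5 runs recovered 74.4% of genes shifted by 1 log2 unit and 92.2% of those shifted by 2. The simulated noise was independent between genes, whereas in the real libraries many genes were high together. These shares therefore check the fit and do not give the power of the real comparison.

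The genes and lists were chosen with earlier results of these data known, so no list was tested. All 36 genes were named. Library values are given for the 12 of smallest p and the 6 of highest mean, and also for some further genes (Lyz2, Ccl3 and Pf4) chosen after their values were seen. From other lists, up to 3 genes of smallest p and the 2 of highest level could be named, and defining markers otherwise. Alternatives were other pseudocounts, filters and scalings, removal of the length and GC trend, robust or weighted fits, the replicate number as a block, and each library left out. Filters on a mean of at least 5 FPKM and on the scrambled mean were chosen after seeing the data. Same-numbered libraries did not deviate together (correlations of -0.11 to 0.014). Differently numbered ones ran from -0.23 to 0.19, so with 4 libraries per group this cannot decide whether the numbers mark pairs.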

Additional observations from a re-analysis of the deposited data

Results flagged for a closer look

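In each group of 4 libraries the highest and lowest value of every member was compared with its nearest neighbour. A library stood apart where the gap passed Dixon's 95% critical value as a share of the range, which happens by chance in about 1 in 20 groups, and 4 of 72 groups had such a value. Ctss in scrambled replicate 1 read 92.3 FPKM against 53.8 to 58.7 in the other controls. Pf4 in anti-miR-29a replicate 1 read 2.00 FPKM and was listed at 0 in the other 3. Ch25h in anti-miR-29a replicate 2 read 1.35 FPKM against 0.333 to 0.381. Ccl4 in anti-miR-29a replicate 3 read 0.103 FPKM and was listed at 0 in the other 3.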

How the results depend on the processing

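No alternative brought a tested member past the adjusted threshold (limma, 0 of 30 or of the members each filter left). The 2 rows past it in the whole table became 10 with robust empirical Bayes, 1 without a filter or with a filter of at least 5 FPKM, 0 with transcripts of at least 200 nt only, and 1 to 3 with a library left out. With the replicate block 0 rows passed, also with the length and GC trend removed. The 7 members higher at an unadjusted p under 0.05 became 4 without a filter, with the length and GC trend removed, with the replicate block and with both, and 3 to 12 with a library left out. Under the replicate block, counts of genes higher at an unadjusted p under 0.05 changed in some lists. The 2 in the list of TREM2 and Fc partners and the 2 among astrocyte markers became 0 and 0. The other lists had counts within 1 of those without the block. For proton pump genes the median of 0.068 was 0.014 under quantile normalization, 0.039 under median centring and -0.0042 with the trend removed, with or without the block. For neuronal genes it was -0.11, -0.041 and -0.063 in the same order, and -0.038 to -0.00515 with a library left out. That range was -0.064 to 0.040 for lipid handling genes and -0.088 to 0.29 for further border macrophage genes. The causes were not tested. Some differences changed sign, and not all of these were near 0. Without these alternatives Apoe, Cd14, Cd52 and Clec7a stood at 0.42, 0.24, -0.22 and -0.13. Apoe stood at -0.057 under quantile normalization. Clec7a stood at 0.085 with a pseudocount of 1, at 0.12 with array weights and at -0.52 to 0.67 with a library left out. Under quantile normalization, median centring and trend removal (with or without the block), Fcgr3 stood at -0.00563, -0.011 and -0.084 and Aif1 at -0.031, -0.027 and -0.13. With a library left out, ranges were -0.16 to 0.18 for Fcgr3, -0.14 to 0.15 for Aif1, -0.082 to 0.13 for Lpl, -0.039 to 0.17 for Axl, -0.12 to 0.14 for Ctss, -0.039 to 0.45 for Cd14 and -0.59 to 0.011 for Cd52. Depth is unknown, so the counting error of values under 0.5 FPKM could not be given.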

Other observations

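Genes of lipid handling, which take up, store or export the lipids that phagocytes digest, held both directions. Of 15 tested genes 8 were higher (where 56.6% of all tested rows were) and 7 lower, with a median of 0.0042. At an unadjusted p under 0.05, 4 were higher and 1 lower (where 7.54% and 3.18% of all tested rows were). None passed after adjustment (limma). Nr1h3, which encodes the oxysterol receptor LXR alpha of macrophages, read 0.977, 0.594, 0.790 and 0.895 FPKM in the scrambled and 1.43, 1.92, 2.13 and 1.31 in the anti-miR-29a libraries. Every treated library lay above every control, as in 4.02% of all tested rows, and the log2 difference was 0.97 ± 0.24 (SE; limma, adjusted p = 0.232). Unlike most activated microglial genes, it was highest in anti-miR-29a replicate 3. Fabp5, a fatty acid carrier gene, read 49.3 ± 4.28 and 60.7 ± 6.36 FPKM (SD, n = 4), and Clu, the gene of the lipid carrier clusterin, 578 ± 65.6 and 683 ± 75.0 FPKM.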
